A study of Mus musculus with 9 samples.

Results

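The comparison set 3 RNA libraries of mouse ILC2s (group 2 innate lymphoid cells) given IL-33 and IFN-γ against 3 given IL-33 alone, paired by their replicate numbers 1 to 3. The cells were wild-type and of the C57BL/6 strain, and had been isolated from fat-associated lymphoid clusters, small immune aggregates in adipose tissue. Both groups received IL-33 at 10 ng/ml for 48 h, and the IFN-γ group also received IFN-γ at 10 ng/ml. Another group of 3 libraries, with IL-33 and IL-27 at 10 ng/ml each for the same time, entered the fits for its spread and 1 direct comparison. Values were FPKM, fragments per kilobase of transcript normalised to sequencing depth. The members were the genes whose 6 libraries averaged 5 FPKM or more, and they numbered 8451 of 11014 tested genes and of 23234 listed features. Members were ranked by consistency, the size of the mean of the 3 paired log2(FPKM + 1) differences divided by their standard deviation. At the threshold, the 3 genes just outside (Sit1, Cdadc1 and Nsun3) had a mean of 4.99 FPKM, and the 3 just inside (Erich1, 1300010F03Rik and Gypc) had means of no more than 5.01 FPKM. The labels do not say whether equal numbers share a cell preparation or whether replicates came from separate cultures or animals. A p-value here therefore reflects how far these libraries spread, which may be in part technical.

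ILC2s are tissue lymphocytes without antigen receptors that release IL-5 and IL-13 when the alarmin IL-33 reaches its receptor ST2. IFN-γ, the type II interferon, binds a receptor of the chains IFNGR1 and IFNGR2. The kinases JAK1 and JAK2 on these chains start a response in which factors bind gamma-activated sites in DNA and genes such as the transcription factor gene Irf1 are switched on. Interferon regulatory factors in turn bind interferon-stimulated response elements, and SOCS1 inhibits the kinases. In many cell types IFN-γ raises antigen presentation and GTPases that attack intracellular microbes, and in ILC2s it is known to restrain type 2 cytokine output.

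FPKM summed to between 628625 and 672534 per library over the 6 libraries, and low values moved in steps that corresponded to about 925000 to 1015000 fragments. A listed 0 was read as allowing up to 3 fragments, which in a transcript of 2 kb is 1.48 to 1.62 FPKM. All 16 defining markers of ILC2s were listed above 0 in some of the 6 libraries, and 15 were members. Of 14 listed macrophage and monocyte markers, 8 were listed at 0 in all 6 libraries. Their summed level was 11.7 to 20.2 FPKM under IL-33 and 60.6 to 93.1 FPKM under IFN-γ. Most of the IFN-γ sum was from Ly6c2, a surface protein gene also expressed by lymphocytes. Ly6c2 had 5.11, 16.4 and 5 FPKM under IL-33 and 38.9, 82.8 and 79.6 FPKM under IFN-γ, and shares sequence with Ly6c1, so the split of reads between the pair is uncertain. The 13 fibroblast and matrix markers summed to 81.7, 58.2 and 212 FPKM in IL-33 replicates 1, 2 and 3 and to 79.7, 86.8 and 215 FPKM in the same order with IFN-γ. Replicate 3 was thus high in both groups. Thy1 stands both in this list and among the defining markers of ILC2s, so the sum can include RNA of ILC2s. T cell markers summed to 156 to 273 FPKM under IL-33 and 141 to 228 FPKM under IFN-γ, and NK cell and ILC1 markers summed to 2.78 to 10.8 FPKM and 4.80 to 12.9 FPKM. The part of other cells in the results below was not tested, and in bulk RNA fewer cells of a type and less RNA per cell cannot be told apart.

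Promoter windows from RefSeq (build GRCm38.p6, 250 bases before to 50 after each annotated start) are shown for members at different steps of the response. Gbp7, Igtp and Gbp2 were among the 10 most consistent rises. Irf1 and Socs1 are the factor and the inhibitor named above, and Insig1, a sterol sensor gene, was among the 10 most consistent lower genes. Each is printed 5′ to 3′, and capitals mark every match to a gamma-activated site (TTCNNNGAA) or an interferon-stimulated response element (GAAA, any 2 bases, GAAA), searched on both strands. For Irf1 the first of its windows in the table is shown.
Gbp7: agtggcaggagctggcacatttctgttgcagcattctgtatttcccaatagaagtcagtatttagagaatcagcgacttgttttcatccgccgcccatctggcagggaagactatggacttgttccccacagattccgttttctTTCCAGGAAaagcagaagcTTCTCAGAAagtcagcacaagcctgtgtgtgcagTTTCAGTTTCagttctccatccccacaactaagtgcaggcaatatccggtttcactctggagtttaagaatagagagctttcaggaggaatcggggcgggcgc
Igtp: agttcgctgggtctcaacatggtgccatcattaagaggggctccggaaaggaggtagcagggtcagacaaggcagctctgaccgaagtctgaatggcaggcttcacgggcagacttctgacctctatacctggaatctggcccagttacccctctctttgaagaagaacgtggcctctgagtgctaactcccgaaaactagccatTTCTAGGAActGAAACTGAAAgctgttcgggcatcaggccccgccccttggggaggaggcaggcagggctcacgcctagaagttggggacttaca
Gbp2: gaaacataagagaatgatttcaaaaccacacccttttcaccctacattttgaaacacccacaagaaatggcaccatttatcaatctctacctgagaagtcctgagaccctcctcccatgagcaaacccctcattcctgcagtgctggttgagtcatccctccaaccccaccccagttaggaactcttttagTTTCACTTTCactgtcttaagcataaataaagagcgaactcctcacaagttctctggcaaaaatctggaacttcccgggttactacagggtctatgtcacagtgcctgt
Irf1: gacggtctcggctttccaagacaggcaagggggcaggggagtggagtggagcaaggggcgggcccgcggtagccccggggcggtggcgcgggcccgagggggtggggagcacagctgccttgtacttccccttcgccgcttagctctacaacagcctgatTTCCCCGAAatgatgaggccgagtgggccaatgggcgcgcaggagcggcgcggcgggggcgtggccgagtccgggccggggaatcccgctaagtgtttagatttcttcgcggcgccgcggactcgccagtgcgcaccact
Socs1: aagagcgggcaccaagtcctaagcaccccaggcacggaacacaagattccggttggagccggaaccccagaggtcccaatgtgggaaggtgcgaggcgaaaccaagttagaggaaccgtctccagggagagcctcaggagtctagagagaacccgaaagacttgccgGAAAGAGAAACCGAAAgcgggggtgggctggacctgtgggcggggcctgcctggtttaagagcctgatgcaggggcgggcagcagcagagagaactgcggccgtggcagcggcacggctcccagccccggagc
Insig1: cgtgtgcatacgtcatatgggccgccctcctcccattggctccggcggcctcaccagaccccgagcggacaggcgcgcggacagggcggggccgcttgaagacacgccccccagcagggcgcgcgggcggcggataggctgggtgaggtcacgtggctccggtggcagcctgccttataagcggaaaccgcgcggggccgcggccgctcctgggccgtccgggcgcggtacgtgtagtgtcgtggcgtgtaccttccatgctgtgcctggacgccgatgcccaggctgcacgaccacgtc

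These windows lie at chr3:142530086-142530385, plus strand (Gbp7), chr11:58199306-58199605, plus strand (Igtp), chr3:142620413-142620712, plus strand (Gbp2), chr11:53769764-53770063, plus strand (Irf1), chr16:10785487-10785786, minus strand (Socs1) and chr5:28071162-28071461, plus strand (Insig1). The Gbp7 window held gamma-activated sites starting 106 and 87 bases before the start and a response element 53 bases before it. In Igtp the gamma-activated site began 45 bases and the response element 34 bases before the start. Gbp2 had a response element 59 bases before the start, Irf1 a gamma-activated site 90 bases before it, and Socs1 overlapping response elements 83 and 77 bases before it. The Insig1 window held neither pattern, which says only that these letters are not in this stretch. The windows shown are examples, and windows not shown went both ways. Those of Gbp5 and Tgtp2, which rose, held both patterns, and those of Zyx and Nln, which fell, held neither. In contrast, the window of Psmb9, which rose, and a later Irf1 window held neither pattern. Those of Csn1s1 and Nupr1, which fell, and of Socs3, lower in each pair, held a gamma-activated site. Over all 32851 promoter windows of the table, 8.30% held the gamma-activated site pattern and 3.44% the response element pattern. A share among the genes that rose is not reported here, since windows were matched for 161 of those 221 members (72.9%), fewer than the 80% such a check needs. Matches describe sequence and were not measured as binding.

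In limma's fit of all 9 libraries, 221 members rose (2.62% of members; 2.19% of all tested genes did) and 74 fell (0.876% of members, 0.717% of tested genes) at an adjusted p under 0.05. The median fold was 3.45 for the rises and 2.46 for the falls, 92 of the rises and 19 of the falls were at least 4-fold, and all 295 (3.49% of members; 2.91% of tested genes) had groups that did not overlap. Over all members, groups did not overlap for 21.5% (20.6% of tested genes), with IFN-γ higher in 11.9% (11.9% of tested genes) and lower in 9.58% (8.65%). With the replicate number as a block, 645 members rose (7.63%, against 6.51% of tested genes) and 490 fell (5.80%, against 4.66%), including all 295. Where a pair of adjusted p-values is given below, the first is without and the second with the block, and folds are ratios on the FPKM + 1 scale. With each of the 9 libraries left out in turn (called omissions below), 123 to 216 members rose and 27 to 63 fell, the fewest of both without IFN-γ replicate 2. With small RNA features removed and the libraries rescaled, 220 rose and 120 fell. The genes that rose made up 1.97% to 2.38% of a library's FPKM sum with IL-33 and 6.50% to 9.26% with IFN-γ. For the genes that fell the shares were 4.22% to 5.30% and 1.61% to 2.12%. Of the 221 rises, 56 had an IL-33 mean under 5 FPKM and so reached the member threshold through the IFN-γ libraries. Likewise 17 of the 74 falls had an IFN-γ mean under 5 FPKM. Lists below can hold such members, so the counts and medians of a list are descriptions. Among the 7901 members with both means at 5 FPKM or more, 165 rose and 57 fell, shares close to those of all tested genes (2.19% and 0.717%).

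The 3 pairs gave the same sign for 4095 members (48.5%; 45.5% of tested genes), 2097 upward (24.8%; 24.4% of tested genes) and 1998 downward (23.6%; 21.1%). In 215 members every pair was higher by at least 1 on the log2 scale (2.54%; 2.47% of tested genes), and in 65 every pair was lower by at least 1 (0.769%; 0.772% of tested genes). Among members, 33 rose by at least 3 in every pair against 1 lower by that much, and 16 rose by at least 4 against none. These counts were not made over all tested genes. They are descriptions, since some members passed 5 FPKM through 1 group only. Such members were counted among limma's calls (56 of the 221 rises and 17 of the 74 falls) and not in the sets of this paragraph. Of the members that differed by at least 1 in all pairs, 166 upward and 37 downward ones passed limma's test without the block, and 211 and 63 passed with it. Of all tested genes, 2.19% rose and 0.717% fell without the block, and 6.51% and 4.66% with it. These members were picked by differences in the same libraries that limma tested. A high share passing thus follows from the choice and is no separate support.

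**Figure D1:**
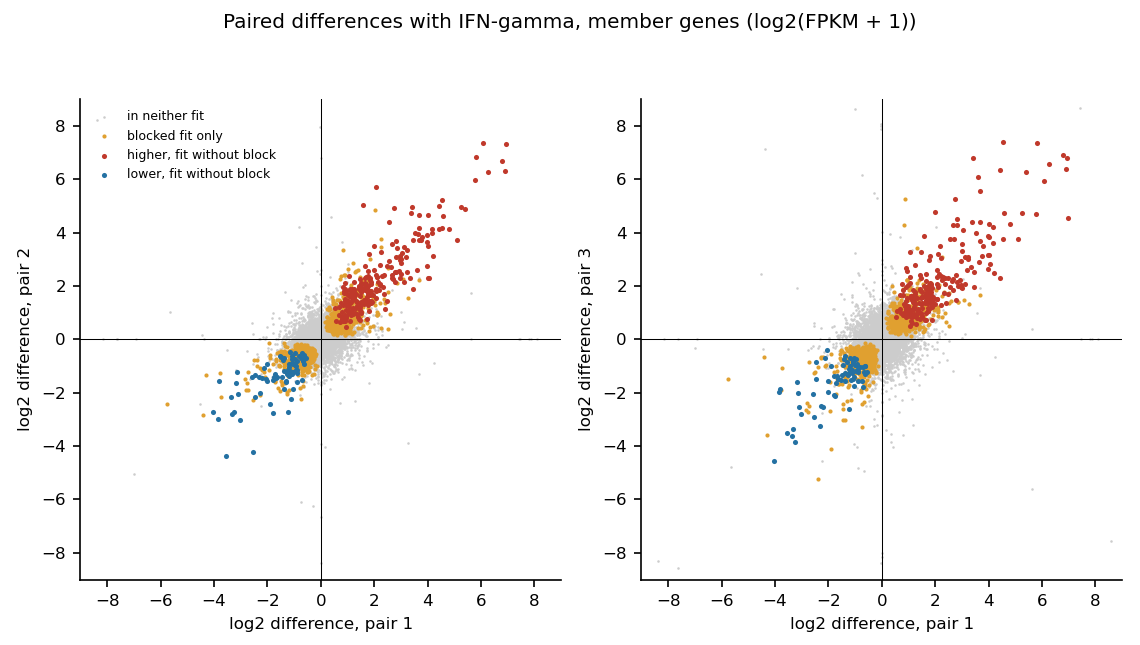
Paired differences in log2(FPKM + 1), IL-33 with IFN-γ minus IL-33 alone, for the 8451 member genes, with pair 1 on the horizontal axes and pair 2 (left) or pair 3 (right) on the vertical axes. Red and blue points are the 221 higher and 74 lower members of the fit without a block, orange points those called only with the block, and 42 (left) and 39 (right) members beyond 9 on either axis, nearly all named as small RNAs but Tgtp1 among them, are not drawn; the red points reach further from 0 than the blue ones.

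The most consistent rises kept nearly the same size in each pair, which is what the ranking selects for. Gbp7, a guanylate-binding GTPase gene (ENSMUSG00000040253.9, chromosome 3, 142193302 to 142213047), had 6.49, 9.43 and 10.3 FPKM under IL-33 and 95.3, 136 and 145 FPKM under IFN-γ in replicates 1, 2 and 3. Gene coordinates here and below are of build mm9. Its lowest IFN-γ library was far above its highest IL-33 library, and the paired differences were 3.69, 3.71 and 3.70 (log2 fold change 3.70 ± 0.22 SE, adjusted p = 2.82e-05). Psmb9, an immunoproteasome subunit gene, had 35.5, 35.6 and 46.6 FPKM and then 282, 286 and 366 FPKM (paired differences 2.96, 2.97 and 2.95; 7.77-fold, adjusted p = 3.58e-05). Igtp, an immunity-related GTPase gene (ENSMUSG00000078853.2, chromosome 11, 58013058 to 58021093), had 33.5, 51.4 and 75.2 FPKM under IL-33, and 621, 926 and 1389 FPKM under IFN-γ. Here replicate 3 was high and replicate 1 low in both groups, so that the fold stayed alike in the pairs (log2 differences 4.17, 4.14 and 4.19, adjusted p = 0.000193). Next in rank came Serpina3f, a serine protease inhibitor gene with close copies, at 0, 0 and 0.5 FPKM and then 23.1, 23.6 and 39.1 FPKM.

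The rest of the 10 were Gm4759, Gbp2, Parp9, Gbp10, Gimap3 and Ccl5. Gbp2 had 6.78, 10.8 and 16 FPKM under IL-33 and 858, 1198 and 2056 FPKM under IFN-γ, with paired differences of 6.79, 6.67 and 6.92. Gimap3, which encodes a GTPase of lymphocyte survival, showed a small but even change, from 77.3, 62.8 and 70.7 FPKM to 179, 139 and 158 FPKM (2.24-fold, adjusted p = 0.00687). Consistency is not size: Gimap3 and Gbp2 stand in the same 10 with folds of 2.24 and 111. Parp9, an ADP-ribosyltransferase family gene of the antiviral response, went from 7.57, 14.4 and 17 FPKM to 28.6, 50.7 and 63.5 FPKM (adjusted p = 0.0289). The Parp9 call was lost in 5 of 9 omissions, with an adjusted p of up to 0.12 without IFN-γ replicate 3, while those of the other 9 held in all 9 omissions.

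**Figure D2:**
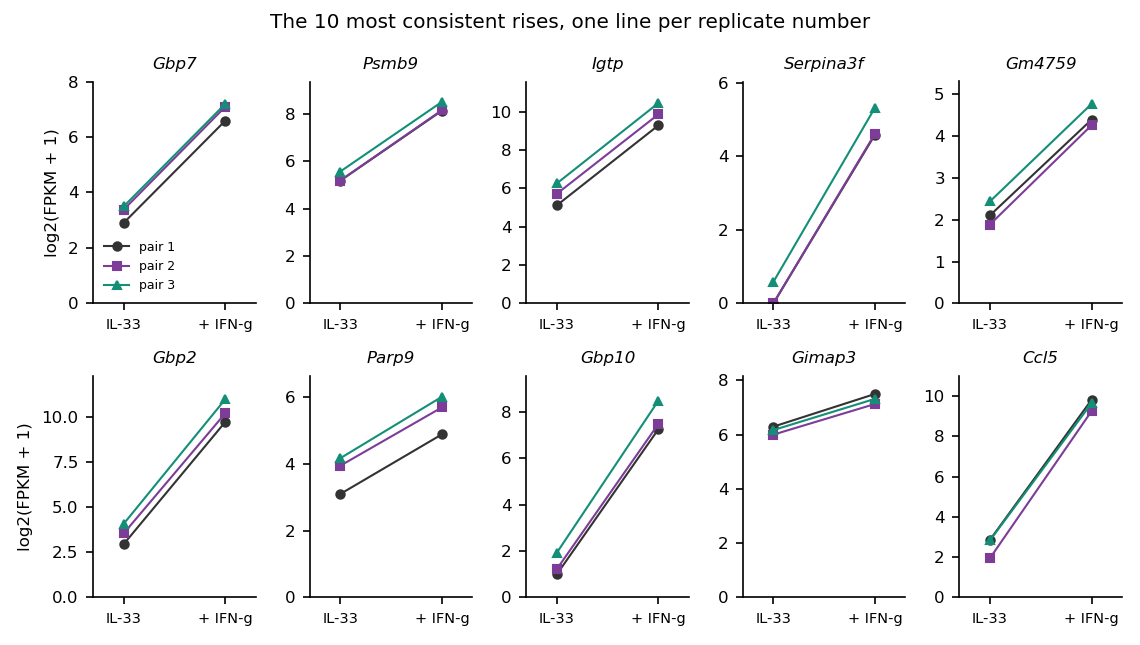
Level of the 10 most consistent rises on the log2(FPKM + 1) scale (vertical axes, a scale for each gene) with IL-33 and with IL-33 and IFN-γ, 1 line per pair. The lines of a gene run nearly parallel, as the ranking selects for, and Gbp7 rose by 3.69, 3.71 and 3.70.

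The receptor chains and kinases of the pathway did not pass the test, while many genes further along it rose. Ifngr1, the ligand-binding chain, had 13.4, 16.7 and 47.1 FPKM under IL-33 and 18.7, 27.3 and 50.2 FPKM under IFN-γ, with overlapping groups (adjusted p = 0.825). Ifngr2, the second chain, also overlapped (log2 fold change -0.24 ± 0.31 SE, adjusted p = 0.792), as did the kinase gene Jak1 (-0.16 ± 0.15 SE, adjusted p = 0.67). Jak2 had a log2 fold change of 0.51 ± 0.17 SE and did not pass in either fit (adjusted p = 0.187, 0.072 with the block). Stat2, a factor of type I interferon signalling, rose 3.22-fold (adjusted p = 0.0308). The Stat2 call was lost in 6 of 9 omissions, with an adjusted p of up to 0.122 without IFN-γ replicate 1. Stat5a, a STAT used by IL-2 family receptors, had 81.6, 41.3 and 39.5 FPKM and then 31.5, 23.8 and 31.7 FPKM, and passed only with the block (adjusted p = 0.225 without, 0.0425 with). In all, 3 of 13 members of the ligand, receptor, kinase and STAT list rose and none fell (3 and 1 with the block), with a median log2 fold change of 0.28 against 0.03 over all tested genes. Ifng itself also rose, from 0, 0 and 1 FPKM to 10.1, 12.2 and 10.6 FPKM (adjusted p = 0.0032).

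Of 10 members among interferon regulatory factors and their partners, 6 rose and none fell without the block, and 7 rose and 1 fell with it (median log2 fold change 1.36). Irf1 (ENSMUSG00000018899.9, chromosome 11, 53583516 to 53591876) had 34.2, 27.4 and 92.8 FPKM under IL-33 and 438, 435 and 701 FPKM under IFN-γ, and IL-33 replicate 3 was the highest control (adjusted p = 0.00182). Irf8, a factor best known from myeloid cells, went from 8.92, 8.87 and 4.6 FPKM to 78.9, 70 and 65.8 FPKM (log2 fold change 3.14 ± 0.28 SE, adjusted p = 0.00032), and Irf9, a DNA-binding factor of the interferon response, from 5.7, 7.4 and 8.9 FPKM to 22.7, 16.3 and 24.5 FPKM (adjusted p = 0.00894). Irf4, a factor of lymphocyte activation, lay lower, at 33.4, 24.5 and 13.7 FPKM under IL-33 and 12.6, 7.15 and 6.5 FPKM under IFN-γ. Its groups did not overlap, yet it passed only with the block (adjusted p = 0.0879 without, 0.00848 with).

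Socs1 (ENSMUSG00000038037.4, chromosome 16, 10783901 to 10785629), which blocks JAK kinases, had 8.015, 4.59 and 3.9 FPKM under IL-33 and 30.9, 50.1 and 41.1 FPKM under IFN-γ, and rose 6.52-fold (adjusted p = 0.000707). Usp18, which restrains type I interferon signalling, rose 11.8-fold (adjusted p = 0.002). Socs3, an inhibitor of receptors that use STAT3, had 30.3, 67.2 and 209 FPKM under IL-33 and 10.4, 20.9 and 38.5 FPKM under IFN-γ. Socs3 was lower in each pair, but IFN-γ replicate 3 lay above IL-33 replicate 1, and it passed only with the block (adjusted p = 0.249 without, 0.00136 with). Socs2, a regulator of growth hormone signalling, passed lower only with the block (-0.56, -0.83 and -1.54 in the 3 pairs; adjusted p = 0.0879 and 0.0416). Of the 17 members of the inhibitor list, 2 rose and none fell without the block, and 2 rose and 2 fell with it (median log2 fold change 0.16). In this list 2 members had an IL-33 mean under 5 FPKM.

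Of 20 guanylate-binding protein and immunity-related GTPase genes on the list, 18 were found in the tables and were members, and these 18 rose. Their median log2 fold change was 4.16, and the pair medians were 4.35, 4.16 and 4.25. Since 7 of the 18 had an IL-33 mean under 5 FPKM and could only be members by being higher with IFN-γ, the count and median are descriptions. Gbp5, which promotes inflammasome assembly, had 1.44, 2.64 and 0.7 FPKM under IL-33 and 101, 105 and 129.8 FPKM under IFN-γ (adjusted p = 1.98e-05). Gbp4 went from 10.4, 9.16 and 18.5 FPKM to 430.2, 311 and 524 FPKM (adjusted p = 3.26e-05). Iigp1, a GTPase gene active at parasite vacuoles, was listed at 0, 0 and 0.7 FPKM under IL-33 and at 54.9, 113 and 274 FPKM under IFN-γ. In contrast to Gbp5 its treated libraries spread over several fold, and every one lay far above the controls (adjusted p = 0.000217). Gbp6 and Gbp10 (0.994, 1.33 and 2.8 FPKM, then 152, 178 and 358 FPKM for Gbp10), and Tgtp1 and Tgtp2 (10.3, 11.8 and 41.1 FPKM, then 614, 789 and 1099.6 FPKM for Tgtp2), are near-identical copies whose reads may be split arbitrarily, so the level of each copy is uncertain.

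Of 28 antiviral members, 5 of which also had an IL-33 mean under 5 FPKM, 19 rose and none fell, and 27 were higher in every pair (median log2 fold change 1.76). Zbp1, a sensor of left-handed nucleic acids, had 12.9, 19.3 and 39.9 FPKM and then 194, 290.1 and 459.8 FPKM (adjusted p = 0.00171). Isg15, a ubiquitin-like modifier, had 1.84, 5.06 and 7.3 FPKM under IL-33 and 22, 32.4 and 80.8 FPKM under IFN-γ (7.6-fold, adjusted p = 0.0126). Bst2, which encodes tetherin, and Eif2ak2, the kinase PKR, rose 2.4-fold and 2.53-fold (adjusted p = 0.00379 and 0.00907 without the block). The Isg15 call was lost without IL-33 replicate 1, to an adjusted p of 0.0527, or without IL-33 replicate 2, to an adjusted p of 0.0503, and the Eif2ak2 call without IFN-γ replicate 2, to an adjusted p of 0.055. Ddx58, which encodes the RNA sensor RIG-I, had 11.8, 12.8 and 25.4 FPKM and then 37.7, 36.2 and 55.9 FPKM, and passed only with the block (adjusted p = 0.0553 without, 0.00136 with). With the block 25 of the 28 rose. Of 10 nucleic acid sensing and inflammasome members 4 rose and none fell (6 and 1 with the block), among them Casp1, which activates IL-1β and IL-18 (2.33-fold, adjusted p = 0.00513). The inflammasome sensor gene Nlrp3 passed lower with the block alone (adjusted p = 0.0475, 0.0746 without).

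Genes at each step of class I presentation rose, from the proteasome to the chains at the cell surface. Of 8 inducible proteasome members, 6 rose and none fell (median log2 fold change 1.64), whereas none of 14 constitutive core subunits passed in limma without the block (unadjusted p under 0.05 for 2; median 0.12). Psmb8 went from 112, 156 and 189.8 FPKM to 388, 499 and 571 FPKM (adjusted p = 0.0037), and Psmb10 from 23.8, 35.8 and 42.3 FPKM to 158, 181 and 208 FPKM (adjusted p = 0.000979). The constitutive subunits that these and Psmb9 replace had overlapping groups: Psmb5 had 91.7, 101 and 54.5 FPKM under IL-33 and 80.3, 104 and 69.4 FPKM under IFN-γ, and the log2 fold changes of Psmb6 and Psmb7 were -0.10 ± 0.22 SE and -0.10 ± 0.20 SE (adjusted p = 0.89 and 0.878). With the block, the constitutive subunit genes Psma1 and Psma2 rose (0.43 and 0.42 on the log2 scale; adjusted p = 0.0339 and 0.0355, 0.3 and 0.313 without). Psme1, a subunit of the proteasome activator, had 111, 98.7 and 128 FPKM and then 365, 409 and 398 FPKM (adjusted p = 0.000386).

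Of 21 class I chain and peptide loading members, 15 rose and none fell without the block, and 16 rose and 1 fell with it (median log2 fold change 1.52). Tap1, a subunit of the peptide transporter, had 36.3, 31.2 and 66.7 FPKM under IL-33 and 209, 217 and 329 FPKM under IFN-γ (adjusted p = 0.00206). B2m, the light chain of class I, rose from 2250.1, 2176 and 2682 FPKM to 6745, 8082 and 10629 FPKM (3.53-fold, adjusted p = 0.00175). H2-K1, a classical class I chain with close relatives that could take some of its reads, had 664, 466 and 688 FPKM and then 1811, 1848 and 2458 FPKM (adjusted p = 0.00216). The chaperone gene Canx, which helps fold class I chains, passed lower with the block alone (log2 fold change -0.41, adjusted p = 0.214 without and 0.0244 with). Nlrc5, the transactivator of class I genes, rose 4.78-fold (adjusted p = 0.00998). The Nlrc5 call was lost without IL-33 replicate 2, to an adjusted p of 0.0574, or without IFN-γ replicate 1, to an adjusted p of 0.0544.

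Of 10 class II presentation members, 4 rose and none fell, and 3 of the 10 had an IL-33 mean under 5 FPKM (median log2 fold change 2.68). Cd74, the invariant chain, had 4.99, 6.39 and 10.8 FPKM under IL-33 and 95.5, 83.2 and 104 FPKM under IFN-γ (adjusted p = 0.00032). Ctss, the protease that trims the invariant chain, went from 1.77, 3.24 and 4.4 FPKM to 34.2, 75.3 and 113 FPKM (adjusted p = 0.000675). H2-Eb1, a class II chain, was listed at 0, 0 and 0.7 FPKM and then at 17.2, 7.71 and 8.6 FPKM (adjusted p = 0.00221). H2-DMa, which loads peptide on class II, had 1.76, 1.61 and 12.2 FPKM under IL-33 and 19.3, 21.2 and 33.6 FPKM under IFN-γ. Replicate 3 was the highest in both groups, and H2-DMa passed only with the block (adjusted p = 0.0671 without, 0.00737 with). H2-Oa, a modulator of the loading step, was at 6.02, 0 and 11.9 FPKM and 27.5, 27.9 and 45.9 FPKM, also called only with the block (adjusted p = 0.113 and 0.024). With the block 7 members rose, and Ifi30, a lysosomal thiol reductase, fell (-0.72 on the log2 scale, adjusted p = 0.0203, 0.229 without). Dendritic cell markers summed to 7.08 to 11.7 FPKM under IL-33 and 10.1 to 11.2 FPKM under IFN-γ, beside the macrophage marker sums given above. Listed B cell markers summed to 34.8, 40.7 and 33.7 FPKM under IL-33 and 20.8, 52.0 and 85.8 FPKM under IFN-γ, nearly all of it from Cd79b (adjusted p = 0.814), and 2 of the 8 were listed at 0 in all 6 libraries. The part of these markers in the class II values was not tested.

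Of 6 chemokine members, 2 of which had an IL-33 mean under 5 FPKM, 2 rose and 1 fell. Ccl5, which attracts T cells, had 6.22, 2.85 and 6.1 FPKM under IL-33 and 893, 605 and 794 FPKM under IFN-γ (adjusted p = 2.82e-05). Cxcl10, a ligand of CXCR3, was at 2.27, 0 and 1.1 FPKM and then at 218, 163 and 126 FPKM (adjusted p = 0.00294). Cxcl3, a neutrophil chemokine, had 287, 99 and 68.1 FPKM and then 19.4, 33.2 and 18 FPKM (adjusted p = 0.0357). The Cxcl3 call was lost in 6 of 9 omissions, with an adjusted p of up to 0.133 without IFN-γ replicate 3. Among 9 chemokine receptors none passed in limma without the block (unadjusted p under 0.05 for 2). With it Cxcr4 and Cxcr6 rose (1.74 and 0.55 on the log2 scale; adjusted p = 0.0298 and 0.00925, 0.116 and 0.149 without), and Ccr1 fell (-1.41; adjusted p = 0.0266, 0.49 without).

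The secreted products of ILC2s split in direction, with Il5 and Il13 lower and Areg, Csf1 and Ltb higher. Il5, the eosinophil cytokine, had 9222, 5587 and 6141 FPKM under IL-33 and 1656, 2183 and 3450.0 FPKM under IFN-γ. The groups did not overlap, and the paired differences were -2.48, -1.36 and -0.83 (adjusted p = 0.0167). Il13 had 11034, 6582 and 5428 FPKM and then 2511, 3132 and 3348 FPKM, with paired differences of -2.14, -1.07 and -0.70 (adjusted p = 0.0282). In both genes IL-33 replicate 1 was the highest control and IFN-γ replicate 1 the lowest treated library. The Il5 call was lost in 3 of 9 omissions, with an adjusted p of up to 0.078 without IFN-γ replicate 2 and the Il13 call in 6 of 9 omissions, with an adjusted p of up to 0.13 without IFN-γ replicate 1. Il9, a mast cell growth factor, followed the same order, with 2029, 233 and 305 FPKM and 36.5, 42.5 and 108 FPKM (paired differences -5.76, -2.42 and -1.49), with pair 1 largest in each, and passed only with the block (adjusted p = 0.0534 without, 0.0234 with).

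Areg, the repair factor amphiregulin, had 104, 62.7 and 79.6 FPKM under IL-33 and 216, 327 and 777 FPKM under IFN-γ, and its paired differences ran in the opposite order to those of Il5, with pair 3 largest (1.05, 2.36 and 3.27; adjusted p = 0.0169). The Areg call was lost in 3 of 9 omissions, with an adjusted p of up to 0.0794 without IL-33 replicate 2. Csf1, a macrophage growth factor, went from 1.98, 2.28 and 2.4 FPKM to 13, 13 and 16.7 FPKM, with the pairs alike (adjusted p = 0.00387). Ltb, which encodes lymphotoxin β, an organiser of lymphoid tissue, had 2.28, 7.31 and 14.6 FPKM and then 111, 108 and 208 FPKM (adjusted p = 0.00272). Its genomic neighbour Tnf, the inflammatory cytokine, had 6.47, 0 and 0 FPKM and then 35, 12.7 and 7.5 FPKM, and passed only with the block (adjusted p = 0.127 without, 0.00151 with). Csf2, which encodes GM-CSF, had 2145, 715 and 426 FPKM and 787, 620.2 and 823 FPKM, with pairs of both signs (adjusted p = 0.892), and Il4 had a log2 fold change of -0.34 ± 0.32 SE (adjusted p = 0.692). The opioid precursor gene Penk passed lower only with the block, at 47.1, 6.94 and 26.5 FPKM and 2.51, 2.34 and 6.4 FPKM (adjusted p = 0.0961 and 0.0164). Of 15 product members, 2 of which had an IL-33 mean under 5 FPKM, 3 rose and 2 fell without the block, and 4 rose and 4 fell with it (median log2 fold change -0.36).

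**Figure D3:**
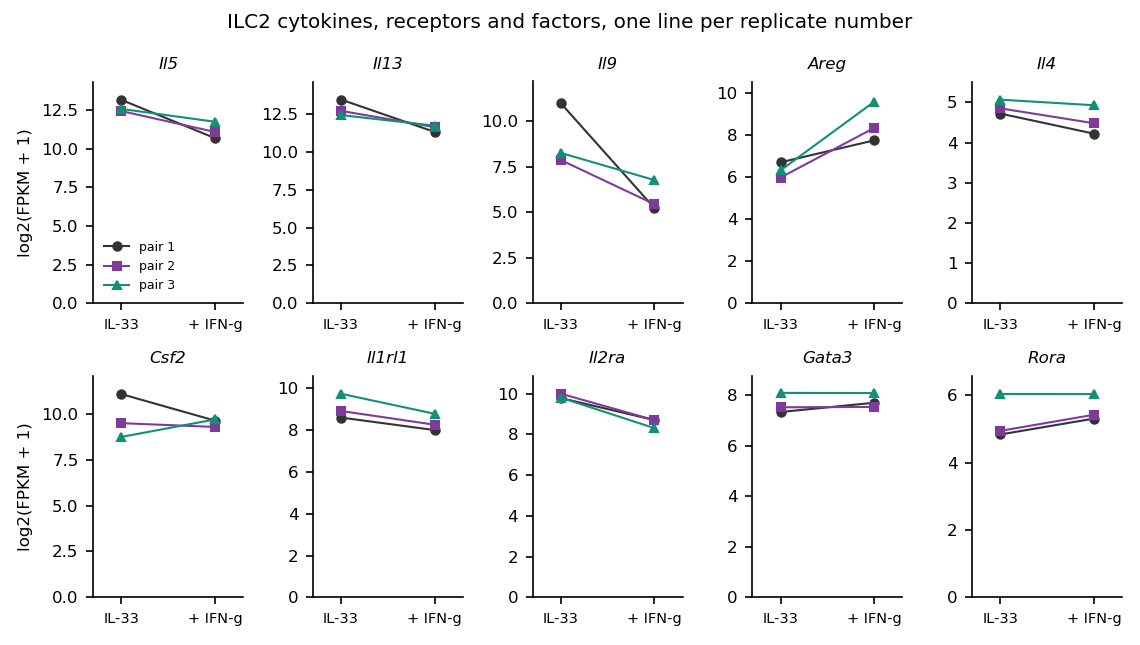
Level of 10 ILC2 genes on the log2(FPKM + 1) scale (vertical axes, a scale for each gene) with IL-33 and with IL-33 and IFN-γ, 1 line per pair. The lines of Il5, Il13, Il9 and Il2ra slope down in every pair and those of Areg up, Csf2 crosses, and Gata3 and Rora are close to level.

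Lineage factors did not pass without the block (0 of 17 members; limma gave an unadjusted p under 0.05 for 2 of them, and for 1405 of all 8451 members). Gata3, the factor that specifies ILC2s, had 161, 183 and 272 FPKM under IL-33 and 208, 185 and 271 FPKM under IFN-γ, with replicate 3 high in both groups (adjusted p = 0.877). Rora had a log2 fold change of 0.32 ± 0.43 SE (adjusted p = 0.802). With the block 1 factor rose and 2 fell. Bcl11b, a zinc finger factor of the T and ILC2 lineages, had 6.1, 6.58 and 8 FPKM under IL-33 and 13.1, 13.3 and 18.6 FPKM under IFN-γ, without overlap (adjusted p = 0.0515 without the block, 0.00892 with). Lmo4, a LIM domain cofactor gene, was lower in each pair (-1.29, -0.94 and -0.82), as was Pparg, a lipid sensor and factor of ILC2s (-0.57, -0.93 and -0.87). For both genes the groups overlapped, and the adjusted p fell from 0.447 to 0.00359 for Lmo4 and from 0.426 to 0.0064 for Pparg with the block.

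Of 19 cytokine receptors 1 rose and 2 fell without the block, and 3 rose and 4 fell with it. Il2ra, the IL-2 receptor α chain, had 877, 1018 and 889.9 FPKM under IL-33 and 414, 413 and 314 FPKM under IFN-γ (2.45-fold lower, adjusted p = 0.00495). Il10ra, a chain of the IL-10 receptor, had 32.8, 17.55 and 41.4 FPKM and then 8.91, 6.01 and 8.8 FPKM (adjusted p = 0.0171). The Il10ra call was lost in 5 of 9 omissions, with an adjusted p of up to 0.0824 without IL-33 replicate 1. Il12rb1, a chain shared by the IL-12 and IL-23 receptors, had 103, 45.4 and 65 FPKM and then 194, 169.8 and 257 FPKM (adjusted p = 0.0213). The Il12rb1 call was lost in 5 of 9 omissions, with an adjusted p of up to 0.09585 without IFN-γ replicate 3. Il1rl1, which encodes the IL-33 receptor ST2, had 384, 478 and 846 FPKM and then 253, 303 and 435 FPKM. Each IFN-γ library was below its own control but IFN-γ replicate 3 lay above IL-33 replicate 1, and the adjusted p was 0.387 without and 0.00486 with the block. Il4ra, a receptor chain for IL-4 and IL-13, also passed lower only with the block (paired differences -1.11, -0.84 and -0.80; adjusted p = 0.191 and 0.00419). Crlf2, the TSLP receptor, and Il27ra, the IL-27 receptor, passed higher only with it (adjusted p = 0.0117 and 0.0184, 0.175 and 0.0699 without).

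Of 9 checkpoint members, 2 of which had an IL-33 mean under 5 FPKM, 1 rose and 1 fell without the block, and 3 rose and 1 fell with it. Cd274, which encodes PD-L1, had 5.63, 4.07 and 3.2 FPKM under IL-33 and 29.2, 17.3 and 46.3 FPKM under IFN-γ (adjusted p = 0.00555), and Pdcd1, its receptor PD-1, had 94.9, 64.7 and 92.9 FPKM and then 19.9, 22.9 and 15.2 FPKM (4.18-fold lower, adjusted p = 0.00175). These were the calls without the block, and with it Lgals9, which encodes galectin-9, and Tnfrsf14, the receptor HVEM, also rose (adjusted p = 0.195 and 0.00564 for Lgals9, 0.0735 and 0.0265 for Tnfrsf14). Ly6a, which encodes Sca-1, went from 1094, 1499 and 1583 FPKM to 3074, 3966 and 4775 FPKM (adjusted p = 0.00394), and Icam1, a ligand of the integrin LFA-1, from 28.3, 25.5 and 21.5 FPKM to 101, 83.1 and 95.1 FPKM (adjusted p = 0.00216). Cd34, a sialomucin gene, was 35.6, 30.4 and 31.9 FPKM under IL-33 and 1.25, 3.75 and 0.4 FPKM under IFN-γ (adjusted p = 0.00221). Pecam1, which encodes CD31 and stood alone among the endothelial markers above 5 FPKM, had 78.3, 66.1 and 49.1 FPKM and then 158, 164 and 204 FPKM (adjusted p = 0.00495). Of 23 ILC2 surface members 3 rose and 2 fell without the block, and 5 rose and 3 fell with it. Of 19 adhesion members, which share some of these genes, 5 rose and 1 fell without the block, and 9 rose and 3 fell with it.

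In the TNF family 1 of 19 members rose, the death receptor gene Fas, from 6.35, 4.36 and 8.6 FPKM to 36.2, 19.8 and 31 FPKM (adjusted p = 0.00409), and 1 fell, while 4 rose and 2 fell with the block. The latter, Tnfrsf8, which encodes CD30, had 54.9, 96.4 and 118 FPKM under IL-33 and 5.89, 11 and 16.3 FPKM under IFN-γ (paired differences -3.02, -3.02 and -2.78, adjusted p = 0.0037). Tnfrsf9, the costimulatory receptor 4-1BB, had 62.3, 18.9 and 198 FPKM and then 2.25, 6.9 and 15.7 FPKM, with IL-33 replicate 2 far below the other controls. It passed only with the block (adjusted p = 0.0873 without, 0.00982 with). Of 17 NF-κB members, 2 of which had an IL-33 mean under 5 FPKM, 2 rose and none fell without the block, and 5 rose and 1 fell with it. Those called without it were Relb, which went from 16.3, 18.2 and 20.6 FPKM to 36.9, 34.9 and 37.9 FPKM (adjusted p = 0.0172), and the inhibitor gene Nfkbie, from 5.5, 3.78 and 4.5 FPKM to 13.2, 14.9 and 14.4 FPKM (adjusted p = 0.024). The Relb call was lost in 5 of 9 omissions, with an adjusted p of up to 0.0746 without IFN-γ replicate 3 and that of Nfkbie in 6 of 9 omissions, with an adjusted p of up to 0.09755 without IL-33 replicate 2. Tnfaip3, which encodes the NF-κB inhibitor A20, passed higher only with the block (adjusted p = 0.0765 and 0.00322), and the subunit gene Rel lower (paired differences -1.88, -0.59 and -0.56; adjusted p = 0.297 and 0.0475).

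Among the 10 most consistent lower genes, 5 fell without the block. Insig1 (ENSMUSG00000045294.9, chromosome 5, 28397952 to 28405201), which holds back the sterol factor SREBP, had 87, 103 and 153 FPKM under IL-33 and 35.5, 40.8 and 60.7 FPKM under IFN-γ. The groups did not overlap, and the paired differences were -1.27, -1.31 and -1.32 (adjusted p = 0.0268). The Insig1 call was lost in 5 of 9 omissions, with an adjusted p of up to 0.106 without IFN-γ replicate 1. Zyx, a focal adhesion protein gene, and Nln, a neuropeptidase gene, also fell (2.24-fold, adjusted p = 0.0363, and 2.39-fold, adjusted p = 0.0247), in calls lost in 7 of 9 omissions, with an adjusted p of up to 0.132 without IFN-γ replicate 2 and in 5 of 9 omissions, with an adjusted p of up to 0.105 without IFN-γ replicate 3.

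Tnfrsf8, given above, was the 1 of the 10 with differences beyond 2. The other 5 of the 10, namely Cd320, Sssca1, Gcat, Slc7a8 and Dhx40, did not pass without the block in spite of their rank and passed with it (limma adjusted p with the block 0.0147 for Sssca1 and 0.0008815 for Dhx40, 0.184 and 0.154 without). The rank and the blocked fit both use the paired differences, so passing with the block is no separate support. Slc7a8, an amino acid transporter gene, had 38.5, 58.1 and 135 FPKM under IL-33 and 13.2, 19.2 and 41.5 FPKM under IFN-γ. Replicate 3 was more than 3 times replicate 1 in both groups, so the groups overlapped, while the paired differences were -1.48, -1.55 and -1.68 (adjusted p = 0.297 without the block, 0.00186 with). Cd320, the receptor for vitamin B12 uptake, had 12.7, 11.6 and 9 FPKM and 5.54, 5.17 and 3.9 FPKM (adjusted p = 0.0537 and 0.0176). Gcat, an enzyme gene of threonine breakdown, had 11.7, 17.3 and 10.9 FPKM and 3.24, 4.22 and 2.7 FPKM (adjusted p = 0.0574 and 0.00728).

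**Figure D4:**
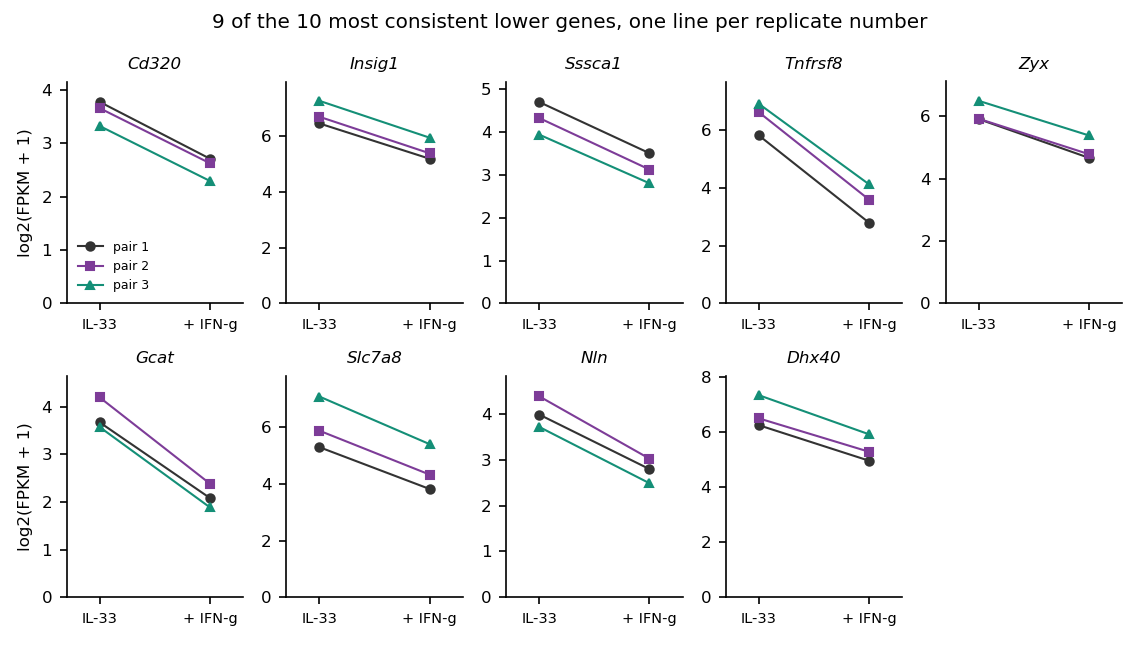
Level of 9 of the 10 most consistent lower genes on the log2(FPKM + 1) scale (vertical axes, a scale for each gene) with IL-33 and with IL-33 and IFN-γ, 1 line per pair. Lines run nearly parallel, as the ranking selects for, and those of Slc7a8 are spread more widely than they fall, from 38.5 to 135 FPKM under IL-33.

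Falls of larger size in every pair were less even. Car8, a carbonic anhydrase-related gene, had 15.5, 15.4 and 13.8 FPKM under IL-33 and 2.38, 3.07 and 1.6 FPKM under IFN-γ (adjusted p = 0.00175), and Adora2b, an adenosine receptor gene, 28.5, 29 and 39.1 FPKM and then 2.46, 6.32 and 5.9 FPKM (adjusted p = 0.00175). 2610019E17Rik had 10.7, 19.5 and 10.5 FPKM under IL-33 and was listed at 0 in all 3 IFN-γ libraries and all 3 IL-27 libraries (adjusted p = 0.000346). It had no match in the mm9 annotation used for coordinates, but had a RefSeq promoter window. Csn1s1, a casein gene, had 27.6, 48 and 72.5 FPKM and then 1.83, 5.96 and 6.1 FPKM (adjusted p = 0.0104). The Csn1s1 call was lost without IL-33 replicate 2, to an adjusted p of 0.0567. Ier3, an early response gene, was lower by more than 2 in each pair, at 57.4, 28.4 and 43 FPKM and 11.4, 4.25 and 5.5 FPKM, but passed in neither fit (adjusted p = 0.164, 0.0559 with the block).

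Of 23 cholesterol members 5 fell and none rose without the block, and 9 fell and 1 rose with it (median log2 fold change -0.60, against 0.03 over all tested genes). Beside Insig1 they included Fdps and Lss, enzymes of sterol synthesis, 1.96-fold and 2.53-fold lower (adjusted p = 0.0403 and 0.00957 without the block). The Fdps call was lost in 7 of 9 omissions, with an adjusted p of up to 0.13 without IFN-γ replicate 1, and the Lss call without IL-33 replicate 2, to an adjusted p of 0.0526, or without IFN-γ replicate 2, to an adjusted p of 0.0534. Of 25 fatty acid members 2 fell without the block and 12 with it, against 0 and 1 that rose (median -0.59). The desaturase gene Scd2 had 117, 120.4 and 282 FPKM and then 10.4, 26.4 and 22.2 FPKM (adjusted p = 0.00566), and Scd1 9.33, 12.4 and 27.8 FPKM and then 0.0727, 0.999 and 1 FPKM (adjusted p = 0.013). The Scd1 call was lost without IL-33 replicate 2, to an adjusted p of 0.051, or without IFN-γ replicate 1, to an adjusted p of 0.0632. Fasn, fatty acid synthase, had 144, 122 and 80.7 FPKM and 68.4, 61.15 and 38.6 FPKM. Its paired differences were almost equal (-1.06, -0.99 and -1.04), and it passed only with the block (adjusted p = 0.163 and 0.00136). Adipocyte markers, of which 7 of 9 were listed at 0 in all 6 libraries, summed to 46.9 to 125 FPKM under IL-33 and 31.2 to 69.0 FPKM under IFN-γ. Nearly all of each sum was Pparg, described above as a factor of ILC2s, at 46.8, 80 and 125 FPKM under IL-33 and 31.2, 41.5 and 68.2 FPKM under IFN-γ.

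Of 22 members among ATF4 targets, genes of the integrated stress response, 1 rose and 2 fell, and 12 fell with the block (median log2 fold change -0.72). Asns, asparagine synthetase, had 21.8, 28.1 and 29.7 FPKM under IL-33 and 4.69, 8.75 and 6.8 FPKM under IFN-γ (adjusted p = 0.0056), and Nupr1, a stress protein, 4.82, 17.6 and 23.7 FPKM and then 0, 0 and 2.3 FPKM (adjusted p = 0.0419). The Nupr1 call was lost in 6 of 9 omissions, with an adjusted p of up to 0.15 without IFN-γ replicate 1. Atf3, a stress factor gene, went the other way, from 1.72, 0 and 0 FPKM to 27.4, 25.5 and 20.2 FPKM (adjusted p = 0.000397). Slc7a5, a large neutral amino acid transporter gene, had 79.3, 69.5 and 43.6 FPKM and 25.9, 35 and 14.4 FPKM, without overlap, and passed only with the block (adjusted p = 0.0847 and 0.0015). Of 20 aminoacyl-tRNA synthetases 1 fell without the block and 9 with it, and 14 were lower in every pair (median -0.46). The single call, of Cars (adjusted p = 0.0457), which charges cysteine, was lost in 9 of 9 omissions, with an adjusted p of up to 0.16 without IFN-γ replicate 3. Gars, which charges glycine, had 127, 141 and 121 FPKM and 79.5, 104 and 75.9 FPKM (adjusted p = 0.164 and 0.0107).

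Of 23 glycolysis members 2 fell without the block and 8 with it, and none rose (median log2 fold change -0.59). Slc16a3, the lactate exporter, had 353, 246 and 423 FPKM under IL-33 and 87, 128 and 142 FPKM under IFN-γ (adjusted p = 0.00805), and Pgam1, a glycolytic mutase, fell 1.68-fold (adjusted p = 0.0275). The Pgam1 call was lost in 7 of 9 omissions, with an adjusted p of up to 0.109 without IFN-γ replicate 3. The pair medians were -0.29, -0.32 and -0.99, so pair 3 was the largest. Ldha, lactate dehydrogenase, had 1823, 2066 and 3065 FPKM and 1361, 1651 and 1595 FPKM, with IL-33 replicate 3 the highest library (adjusted p = 0.222 without the block, 0.0315 with). Immediate early genes, which respond to handling and stimulation, summed to 526, 426 and 1292 FPKM in IL-33 replicates 1, 2 and 3 and to 431, 395 and 493 FPKM under IFN-γ. IL-33 replicate 3 was thus the highest library in this sum and in Ldha, and its part in the glycolysis values was not tested.

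Chaperone and ribosomal protein lists had medians of opposite sign. None of 19 heat shock and endoplasmic reticulum chaperones passed in limma without the block (unadjusted p under 0.05 for 12), but 17 were lower in every pair and 10 fell with it (median log2 fold change -0.54). Hsp90b1, a chaperone of the endoplasmic reticulum, had 706, 703 and 857 FPKM under IL-33 and 283, 481 and 537 FPKM under IFN-γ, without overlap (adjusted p = 0.13 and 0.0117), and Xbp1, a factor of the unfolded protein response, had paired differences of -0.59, -0.32 and -0.94 (adjusted p = 0.245 and 0.0359). Of 39 ribosomal proteins 31 were higher in every pair, 1 rose without the block and 14 with it (median 0.33). That one, Rps28, had 669, 671 and 514 FPKM and then 1159, 1124 and 1608 FPKM (adjusted p = 0.0419). The Rps28 call was lost in 8 of 9 omissions, with an adjusted p of up to 0.153 without IFN-γ replicate 3. Of 35 respiratory chain members none passed in limma without the block (unadjusted p under 0.05 for 5), 7 rose with it and 19 were higher in every pair (median 0.20). Many processed copies of ribosomal protein genes exist, so their read assignment is uncertain.

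The cell cycle list differed between the pairs. None of 43 passed in limma without the block (unadjusted p under 0.05 for 6), and with it 4 fell (Mki67, Cdc20, Cdc25a and E2f2); the pair medians were -0.55, -0.05 and 0.11. Mki67, a marker of cycling cells, had 103, 134 and 95.8 FPKM under IL-33 and 38.2, 80.7 and 67.6 FPKM under IFN-γ, without overlap, and pair 1 differed most (adjusted p = 0.165 and 0.018). Of 14 D-type cyclin and kinase inhibitor members 2 rose and none fell without the block, and 6 rose and 1 fell with it. The first were Ccnd3 and Rbl2 (1.81-fold, adjusted p = 0.0267, and 2.33-fold, adjusted p = 0.00513). The Ccnd3 call was lost in 6 of 9 omissions, with an adjusted p of up to 0.1 without IFN-γ replicate 2. Cdkn1a, which encodes the inhibitor p21, had 94.2, 30.6 and 53.3 FPKM and 206, 129 and 88.6 FPKM, higher in each pair with overlapping groups (adjusted p = 0.303 and 0.0224). Of 31 cell death members 4 rose and none fell without the block, and 11 rose with it. Mlkl, the effector of necroptosis, had 38, 32.9 and 33.5 FPKM and then 72.2, 95.6 and 75.7 FPKM (adjusted p = 0.00564). Gsdmd, the pore protein of pyroptosis, had 12.3, 11.8 and 19.8 FPKM and 25.1, 38.3 and 56.1 FPKM, without overlap (adjusted p = 0.0551 and 0.00252).

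In tryptophan, arginine and nitric oxide metabolism 2 of 10 members rose and none fell without the block, and 2 rose and 3 fell with it. Ido1, which breaks down tryptophan, was listed at 0, 1.38 and 0 FPKM under IL-33 and at 11.2, 13.2 and 66.8 FPKM under IFN-γ, with replicate 3 far above the others (adjusted p = 0.00564). Ass1, which makes the precursor of arginine, had 33.8, 37.8 and 35.8 FPKM and then 108, 103 and 71 FPKM (adjusted p = 0.00907). The Ass1 call was lost without IFN-γ replicate 2, to an adjusted p of 0.055. Arg1, arginase 1 of ILC2s, had 200.5, 492 and 1292 FPKM and 210.3, 362 and 761 FPKM, and its replicates differed more than its groups (adjusted p = 0.883). Tph1, tryptophan hydroxylase 1, passed lower only with the block (paired differences -0.78, -1.82 and -1.32; adjusted p = 0.2235 and 0.00522), as did Odc1 and Gch1 (adjusted p = 0.504 and 0.0449 for Odc1, 0.248 and 0.0492 for Gch1). In the remaining lists, 2 of 6 members of the type 1 lymphocyte programme rose (Ifng and Ccl5) and none fell in either fit. Of these 6, Ifng had an IL-33 mean under 5 FPKM. Of 23 lysosomal members, 2 of which had an IL-33 mean under 5 FPKM, 2 rose without the block and 3 with it, and none fell in either fit. Of 13 eicosanoid members 2 rose and none fell without the block, and 2 rose and 3 fell with it, among the latter Alox5, which encodes 5-lipoxygenase (adjusted p = 0.186 and 0.0114). Of 10 MAP kinase phosphatase and Sprouty family members 1 fell without the block and 2 with it, and none rose in either fit.

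**Figure D5:**
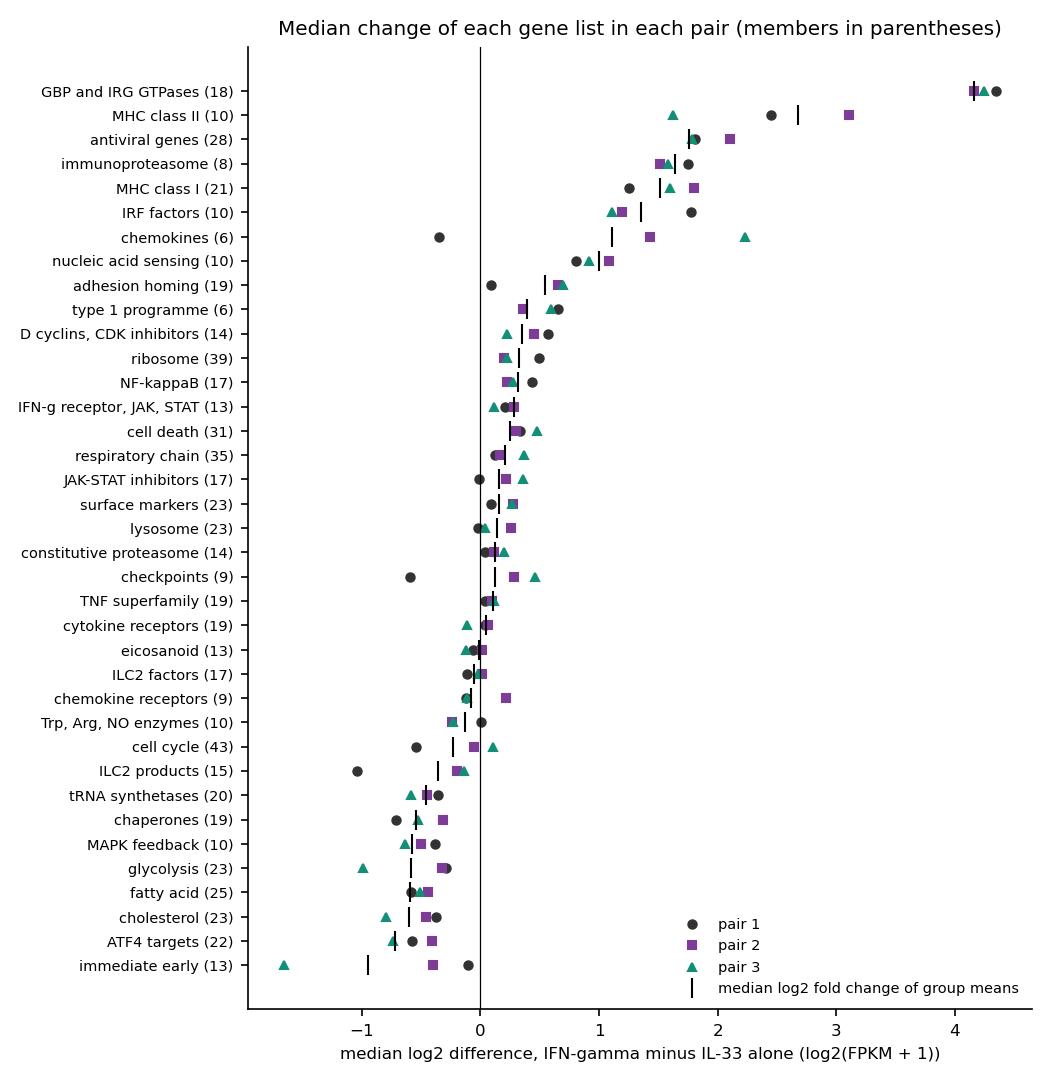
Median log2(FPKM + 1) difference, IL-33 with IFN-γ minus IL-33 alone, of the members of each gene list with at least 5 members (horizontal axis; number of members in parentheses), for each pair and for the group means. The GTPase list is at 4.16 with the pairs close together, while the pairs lie further apart in other lists, such as the chemokine, immediate early, class II and checkpoint lists.

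Against IL-27 the IFN-γ values were compared directly, since separate comparisons share the IL-33 libraries. Without the block limma called no member different between IFN-γ and IL-27. Its unadjusted p was under 0.05 for 374 of 8451 members and for 483 of 11014 tested genes, a similar share. With the block 20 members passed (0.237%; 0.182% of tested genes), 6 higher and 14 lower with IFN-γ. Cxcl10 had 38, 2.08 and 3.2 FPKM under IL-27, below 218, 163 and 126 FPKM under IFN-γ in every replicate (adjusted p = 0.322 without the block, 0.0477 with). Gbp2 had 499, 578 and 795 FPKM under IL-27 (1.07 on the log2 scale, IFN-γ minus IL-27; adjusted p = 1 and 0.0361). Tnfrsf8 had 31.6, 33.3 and 57.9 FPKM under IL-27, between its IL-33 and IFN-γ values in every replicate (-1.84; adjusted p = 0.438 and 0.0247). Socs3 had 46.3, 74.7 and 163 FPKM under IL-27 (-1.96; adjusted p = 1 and 0.0247), and Il1rl1 415, 549 and 976 FPKM (-0.91; adjusted p = 1 and 0.0361). For both, every IL-27 library was above the IFN-γ library of its number. Irf1, with 389.6, 306 and 468 FPKM under IL-27, did not pass in either fit (adjusted p = 1 and 0.539).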

How the data were processed

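The authors deposited 1 table per library with FPKM per gene symbol; the unit is inferred from the values and from the submitters' processing notes, which name Bowtie2 2.1.0, TopHat2 2.0.8, Cufflinks 2.1.1 and build mm9, without parameters. Commas were removed from the replicate 3 tables, which give 1 decimal where the others give more. RNA was total RNA and libraries were made with a TruSeq kit, per the labels' protocols. Identifiers and coordinates came from GENCODE vM1 (mm9) for 21640 symbols; 25 date-like symbols were kept unnamed. Depth was estimated from steps between low values and annotated lengths, and is approximate.

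The genes averaging 1 FPKM or more in the 9 libraries were fitted on log2(FPKM + 1) with limma 3.58.1 (R 4.3.3; 3 groups together, intensity trend, two-sided, Benjamini-Hochberg over 11014 genes, threshold 0.05, no minimum fold), tested on simulated data. Fold changes are on that scale and understate low genes. Deviations from group means correlated at 0.128 to 0.367 between libraries of the same number and at -0.298 to -0.0251 otherwise over tested genes. Deviations within a group cancel out, so positive values for equal numbers make the others negative on balance. From the positive values the numbers were taken to pair libraries. A fit with the number as a block is given for lists and named genes whose calls it changes. Members, 48 gene lists and the naming rule (the most consistent genes, the largest change reached by every pair, the largest called with the block only, the widest opposite differences, up to 4 called and 2 abundant genes per list, and pathway genes) were chosen with earlier results of these data known. A few genes that this rule names are not reported here. Alternatives were block, libraries, pseudocount, filter, scaling, trend and omissions. Python 3.11.15 with pandas 2.3.3 (tables), numpy 2.4.6 and matplotlib 3.10.9 (figures) did the rest.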

Additional observations from a re-analysis of the deposited data

How the results depend on the processing

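No called member changed sign in any alternative run. Since the groups of all 295 called members did not overlap, only the runs that rescaled the libraries could have changed a sign. Of the 295, 131 (112 higher and 19 lower) were called with any 1 of the 9 libraries left out. Scaling moved the median log2 change of all genes by less than 0.1. Of all tested genes, 241 rose and 79 fell without the replicate block and 717 and 513 with it, 154 and 33 in a fit of the 6 libraries alone, 128 and 34 with no filter on low values, and 109 and 16 with pair 3 omitted, an alternative added after the data were seen. With small RNA features removed, also added later, 243 rose and 128 fell. Omitting 1 library gave 130 to 229 rises and 27 to 70 falls, and omitting all libraries of replicate 2, with the block, 157 and 49. Of members, 221 rose and 74 fell in the fit without the block and 645 and 490 with it, 141 and 30 in the 6 libraries alone, 113 and 24 without a filter, 107 and 13 with pair 3 omitted, and 123 to 216 and 27 to 63 on omitting 1 library. With small RNA removed 120 members fell, and 47 without replicate 2, with the block. Members with 3 paired differences of at least 1 numbered 215 up and 65 down, 124 and 30 at a mean of at least 20 FPKM, and 37 down with a pseudocount of 5. Over 2 pairs instead of 3, 271 to 295 were up and 101 to 117 down. Between IFN-γ and IL-27 the members called went from 0 to 20 with the block. The fit of 6 libraries and the omissions have fewer libraries to set the spread, and the fit without a filter tests more genes. The cause of the other differences was not tested.

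Log2 fold changes of uncalled genes turned sign on omitting 1 library, over ranges of -1.04 to 0.30 for Arg1, -0.15 to 0.85 for Cd79b, -0.75 to 0.42 for Csf2, -0.032 to 0.35 for Gata3, -0.43 to 0.0059 for Ifngr2, -0.20 to 0.24 for Psmb5, -0.23 to 0.031 for Psmb6 and -0.24 to 0.10 for Psmb7. With a replicate number omitted and the block kept, Cd79b was at -0.20, Csf2 at 0.37, Psmb5 at -0.074, Psmb6 at 0.036 and Psmb7 at 0.014. With pair 3 omitted and no block, Cd79b was at -0.20 and Psmb5 at -0.074, and Psmb5 was at -0.017 with small RNA removed. At the depths given, changes in genes near 1.5 FPKM may go undetected.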

Other observations

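Of the 295 members that passed, 170 (118 rises and 52 falls) stood in none of the gene lists. Those named here were chosen after their values were seen. Lsp1, an actin-binding protein of leukocytes, had 52.6, 40.4 and 45.1 FPKM under IL-33 and 233, 205 and 177 FPKM under IFN-γ (limma adjusted p = 0.000192). Gimap4, another GTPase gene of the Gimap family, had 129, 184 and 161 FPKM and then 486, 491 and 489.9 FPKM (limma adjusted p = 0.000755). Il18bp, the decoy receptor of IL-18, was listed at 1.7, 0.777 and 0 FPKM under IL-33 and at 57.3, 55.8 and 80.1 FPKM under IFN-γ (adjusted p = 0.00018). Ubd, a ubiquitin-like modifier gene, was at 0 in each IL-33 library and at 15.2, 3.85 and 13.2 FPKM under IFN-γ (adjusted p = 0.00752), against 0, 0 and 1.3 FPKM under IL-27. The tetraspan genes Ms4a4b, Ms4a4c and Ms4a6b, which lie close together and resemble one another, also rose. Ms4a4b was listed at 0 with IL-33 and at 12, 24.1 and 46.5 FPKM under IFN-γ (adjusted p = 0.00144), and replicate 3 was the highest in all 3 genes. Ikzf2, which encodes the factor Helios, had 4.52, 2.12 and 4.1 FPKM and then 14.2, 13.8 and 14.1 FPKM (adjusted p = 0.0071).

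Ftl1, the ferritin light chain, had 2336, 3152 and 2246 FPKM under IL-33 and 938, 1078 and 903 FPKM under IFN-γ (2.63-fold lower, adjusted p = 0.0032). Fth1, the heavy chain, had 521, 648 and 380.0 FPKM and 340.3, 371 and 343 FPKM, and passed only with the block (adjusted p = 0.224 without, 0.0484 with). Actg1, γ-actin, had 5136, 5365 and 6010.1 FPKM and then 2450.1, 3193 and 3311 FPKM (adjusted p = 0.0198). This call was lost in 5 of 9 omissions, with an adjusted p of up to 0.0909 without IFN-γ replicate 1. Actb, β-actin, had a log2 fold change of -0.26 (adjusted p = 0.404). Whether the members of each pair differed from one another was not tested. Tpm1, a tropomyosin gene, fell 2.82-fold (adjusted p = 0.00399), and Egfr, the receptor of amphiregulin, had 32.1, 31.7 and 39.1 FPKM and then 11.8, 13.3 and 12.6 FPKM (adjusted p = 0.00559). Lilrb4 and Gp49a, receptor genes that overlap and are close copies, so that their reads cannot be told apart, fell 4.35-fold and 4.03-fold (adjusted p = 0.0198 and 0.019). The Lilrb4 call was lost without IL-33 replicate 1, to an adjusted p of 0.0892, or without IL-33 replicate 3, to an adjusted p of 0.0675, and the Gp49a call in 4 of 9 omissions, with an adjusted p of up to 0.0892 without IL-33 replicate 1.

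Of 85 members named as small RNAs none passed in limma without the block, 1 passed with it, and 4 had 3 paired differences of one sign. All 733 features named as small RNAs, members or not, made up 5.97% to 17.95% of the FPKM sum in the 6 libraries, the most in IL-33 replicate 1. The 6 members with the widest range of opposite differences were all named as small RNAs.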
